A study of Homo sapiens with 6 samples.

Results

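The genes described here are the MET and RON receptor axis: the receptor tyrosine kinases MET and MST1R (the gene of RON), their ligands HGF and MST1, the ligand-activating proteases HGFAC and ST14, and the protease inhibitors SPINT1 and SPINT2. They were chosen as the parts of a known pathway, with earlier results of these data known, by gene symbol in the platform's annotation. All 8 were found, in 11 of the 45033 transcript records on the array, among 17185 named genes. Each gene is represented by its record with the highest mean intensity, and 3 other records, 2 of HGF and 1 of SPINT1, are given beside it. The treated cells were of MDA-MB-231, a widely used line from a human triple-negative breast cancer, given DCC-2036 (rebastinib, a kinase inhibitor developed against ABL1 that also acts on TEK and TRK receptors) at 3.75 μM for 48 h, and the control cells were the same line cultured for 48 h at 0 μM. Each group had 3 one-colour arrays from experiments described as independent, so 3 arrays per group limit the precision of every value, and a single line at a single dose and time was measured.

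MET and RON are closely related receptors that drive cell scattering, invasive growth and survival in epithelial tissues and carcinomas. HGF binds MET, and the MST1 product, macrophage-stimulating protein, binds RON. Both ligands are secreted as inactive single chains and gain activity when a serine protease cuts them, a step carried out by the HGF activator (HGFAC) in blood and tissue and by matriptase (ST14) at the epithelial cell surface, and held back by the Kunitz-type inhibitors SPINT1 and SPINT2. HGF is mostly made by stromal cells, and HGFAC and MST1 mostly by the liver.

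Median intensities of the 6 arrays lay between 264.6 and 273.7, and arrays of a group resembled each other (Pearson r of log2 values over all genes from 0.964 to 0.978) more than arrays of different groups (0.929 to 0.937), a description over genes that are not independent. The label was checked against 4 markers that a mesenchymal triple-negative line should have at a high level and 4 that it should have at a low one. VIM, CD44, CAV1 and AXL, the high ones, all had group means above the array medians, but 3 of the 4 fell (29.1% of all genes passed the test), and their summed intensity ran from 17650.8 to 19483.5 in DCC-2036 arrays and from 35898.6 to 38790.1 in control arrays. CAV1, caveolin 1, fell 4.68-fold, with 1394 ± 80.9 in DCC-2036 arrays and 6550 ± 749 in control arrays (SD, n = 3 each). AXL, a receptor tyrosine kinase, fell 2.95-fold, with 4385 ± 604 in DCC-2036 arrays and 12869 ± 354 in control arrays. VIM, an intermediate filament of mesenchymal cells, had 11529.6 ± 888 in DCC-2036 arrays and 16441 ± 1189 in control arrays, a log2 change of -0.51 that lost its call without any one of the 6 arrays. Of the low ones, ESR1, PGR and CDH1, the estrogen receptor, progesterone receptor and E-cadherin, had group means in the dimmest 25% of records (mean intensity under 74.06). ERBB2, the HER2 receptor and the remaining low marker, was not dim, with 1814 ± 40.6 in DCC-2036 arrays and 1811 ± 256 in control arrays. No HER2-positive line was measured beside it, so whether this level is low for ERBB2 is not known. The part of these marker changes in the results that follow was not tested. No detection call comes with the values, so whether a dim record was above background is not known.

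With DCC-2036, mRNA of both receptors was lower and mRNA of both ligands was higher, as were the protease ST14 and the inhibitor SPINT2. The HGF rise was seen in 1 of its 3 records, at an intensity in the dimmest 25%, and did not pass with the mean of the records (0.47). The ST14 rise did not pass with the replicate block (limma adjusted p = 0.0836), nor in most fits that left out a single array. In the limma test adjusted over all genes, 4 of the 8 genes rose, 2 fell and 2 did not pass, so 75.0% passed beside 29.1% of all genes tested, a description of genes chosen with earlier results known. The 3 treated arrays lay wholly on one side of the 3 control arrays in 7 of the 8 genes, against 46.5% of all genes. The median log2 change of the 8 genes was 0.58, beside 0.02 over all genes. In RNA from whole cultures, fewer expressing cells and less RNA per cell cannot be told apart.

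**Figure D1:**
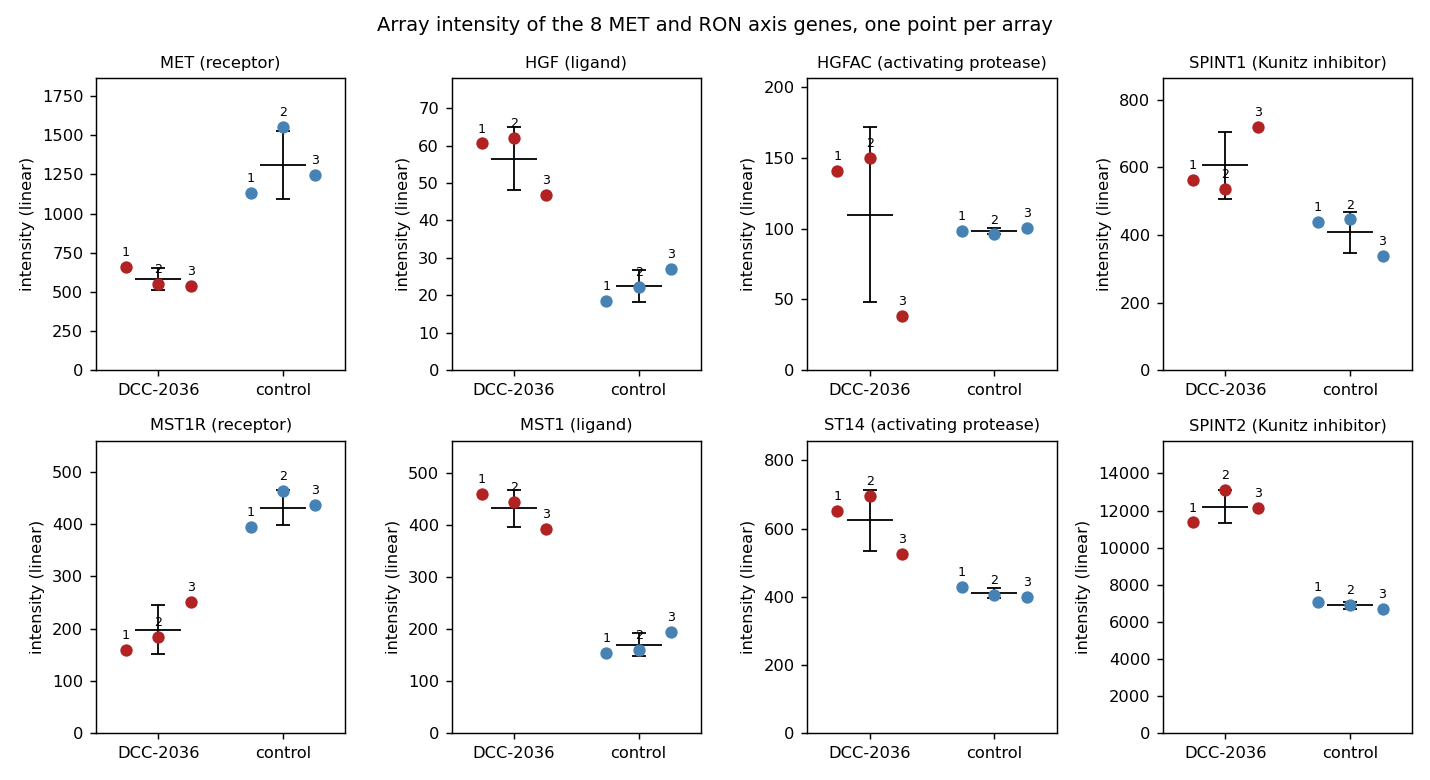
Array intensity (linear scale, vertical axis) of the 8 genes, with DCC-2036 arrays in red and control arrays in blue, replicate numbers above the points and mean ± SD as black bars. MET and MST1R sit lower in every treated array than in any control array, HGF, MST1, ST14, SPINT1 and SPINT2 sit higher, and HGFAC overlaps, with 38.62 in DCC-2036 replicate 3.

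Both receptors fell. MET, the HGF receptor, had intensities of 660.8, 549.0 and 538.5 in DCC-2036 replicates 1, 2 and 3, against 1133.6, 1552.2 and 1247.7 in control replicates 1, 2 and 3. The highest treated array lay well under the lowest control array, and the controls were spread more widely than the treated arrays. This was a 2.24-fold fall, a log2 change of -1.16 ± 0.18 (SE; 95% interval -1.60 to -0.73; limma adjusted p = 0.00587). Of all genes, 7.13% fell as far or farther.

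MST1R, the receptor of macrophage-stimulating protein, had 159.5, 183.5 and 250.5 in DCC-2036 replicates 1, 2 and 3, against 395.7, 463.2 and 437.3 in the control replicates. The groups did not overlap, and DCC-2036 replicate 3 was the highest of the treated arrays. The log2 change was -1.15 ± 0.20, a 2.21-fold fall (95% interval -1.64 to -0.66; limma adjusted p = 0.00914). The falls of both receptors were close in size, and each kept its call in all 16 alternatives run, with log2 changes from -1.26 to -1.03 for MET and from -1.329 to -1.004 for MST1R. Neither receptor has a second named record on the array, so splice forms could not be compared. The alternatives that use a gene's other records therefore refit the same receptor values.

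The ligands moved the other way. MST1, macrophage-stimulating protein, had 459.6, 444.6 and 392.0 in the DCC-2036 replicates, against 154.3, 159.6 and 194.9 in the control replicates. The treated arrays were all more intense than any control array, and the log2 change of 1.35 ± 0.16 (95% interval 0.96 to 1.73), a 2.55-fold rise, was the largest rise among the 8 genes (limma adjusted p = 0.00268). Only 3.06% of all genes rose as far or farther. MST1 kept its call in all 16 alternatives, between 1.27 and 1.45. The genome holds closely similar pseudogene copies of MST1 (MST1L and MST1P2), and whether the record also reads their transcripts could not be told.

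HGF, the ligand of MET, had 60.6, 62.2 and 46.8 in the DCC-2036 replicates, against 18.5, 22.3 and 27.0 in the control replicates. The groups did not overlap, but both group means lay in the dimmest 25% of records, so the rise of 2.45-fold (log2 change 1.29 ± 0.20, limma adjusted p = 0.00594) rests on a weak signal. With a pseudocount of 16 it was 0.91 and still passed. The other 2 HGF records were as dim or dimmer and did not pass when adjusted over all records, of which 26% passed: NM_001010931 had 44.93, 19.47 and 27.98 with DCC-2036 and 20.3, 23.0 and 20.4 in control arrays (log2 change 0.44, 95% interval -0.28 to 1.16). NM_001010934 had 17.8, 16.2 and 17.8 with DCC-2036 and 17.0, 37.3 and 16.7 in control arrays (log2 change -0.33, 95% interval -1.10 to 0.44, and 0.03 without control replicate 2, the array at 37.3). Averaging the 3 records gave a change of 0.47 that did not pass (limma adjusted p = 0.131). The rise was therefore seen in 1 of the 3 HGF records.

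**Figure D2:**
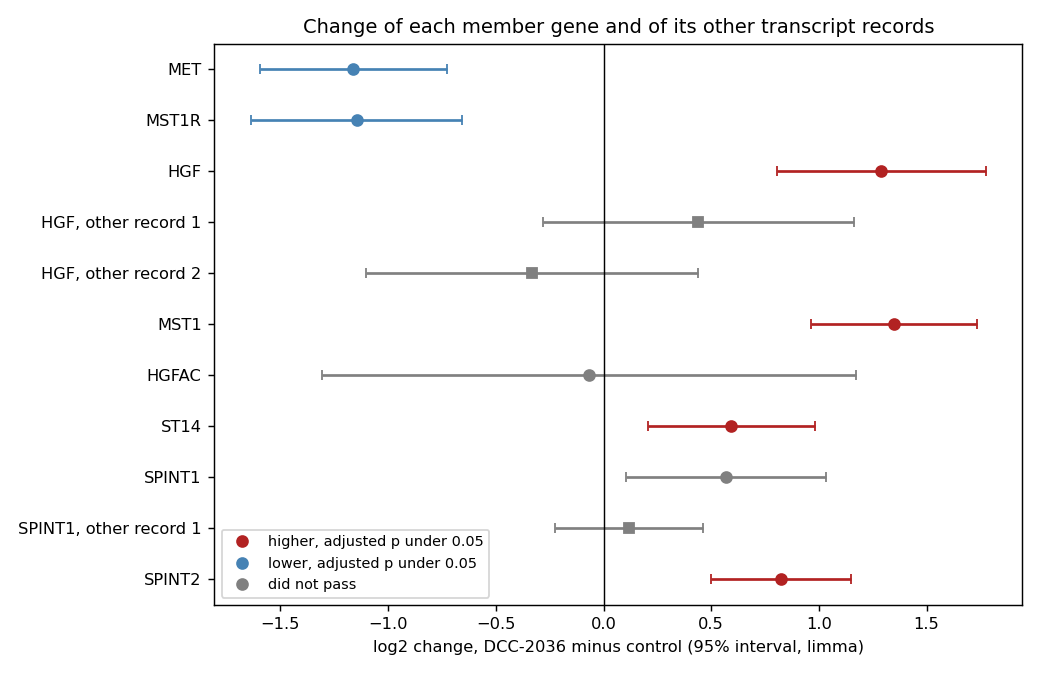
Log2 change, DCC-2036 minus control (horizontal axis), with 95% intervals from limma, for the representative record of each gene (circles, adjusted over all genes) and for the 3 other records (squares, adjusted over all records). Receptors lie left of 0, at -1.16 and -1.15, ligands right of it, at 1.29 and 1.35, and the other records of HGF and SPINT1 have intervals that cross 0.

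The promoter sequences of the receptors that fell and of the ligands that rose are shown for comparison, since these 4 genes changed the most. They are the 250 bases before the RefSeq start (GRCh38.p14), 5′ to 3′ on the gene's strand, with matches on either strand to any of 4 motifs in capitals: the GC box of SP1 (GGGCGG), the AP-1 site (TGANTCA), the E-box (CACGTG) and an ETS core (CGGAAG). The RefSeq table held a promoter for 6 of the 8 genes, not ST14 or SPINT2.
MET, chr7:116671946-116672195, plus strand: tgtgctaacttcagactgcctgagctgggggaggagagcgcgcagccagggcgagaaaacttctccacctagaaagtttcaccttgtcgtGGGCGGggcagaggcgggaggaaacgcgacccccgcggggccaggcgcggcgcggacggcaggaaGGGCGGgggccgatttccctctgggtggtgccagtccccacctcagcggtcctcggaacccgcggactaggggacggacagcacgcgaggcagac
MST1R, chr3:49903874-49904123, minus strand: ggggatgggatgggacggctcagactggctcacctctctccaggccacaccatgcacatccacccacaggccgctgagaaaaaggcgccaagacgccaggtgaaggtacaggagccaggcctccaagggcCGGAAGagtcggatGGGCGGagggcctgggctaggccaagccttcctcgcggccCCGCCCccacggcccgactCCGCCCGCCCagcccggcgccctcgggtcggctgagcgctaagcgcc
HGF, chr7:81770048-81770297, minus strand: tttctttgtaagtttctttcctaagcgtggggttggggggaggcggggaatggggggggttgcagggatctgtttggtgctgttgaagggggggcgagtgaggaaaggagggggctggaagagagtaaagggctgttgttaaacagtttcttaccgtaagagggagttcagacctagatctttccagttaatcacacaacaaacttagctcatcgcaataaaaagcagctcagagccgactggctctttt
MST1, chr3:49689475-49689724, minus strand: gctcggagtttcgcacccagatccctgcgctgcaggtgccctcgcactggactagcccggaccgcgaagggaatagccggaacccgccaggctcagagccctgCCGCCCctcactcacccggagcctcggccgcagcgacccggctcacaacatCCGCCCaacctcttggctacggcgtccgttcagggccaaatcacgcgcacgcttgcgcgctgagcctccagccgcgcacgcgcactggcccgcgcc
The MET window held 2 GC boxes and the MST1R window 4, of which 2 overlap, and MST1R also held 1 ETS core. Among the ligands, MST1 had 2 GC boxes and HGF had no match to any of the 4 motifs. GC boxes stand in 42.6% of the 35116 RefSeq promoter windows of this length, ETS cores in 16.5%, AP-1 sites in 6.57% and E-boxes in 6.34%. GC boxes were thus found in a gene that rose as well as in both that fell, and a match is a description of letters only.

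Of the activating proteases, ST14 rose modestly and HGFAC did not pass. ST14, the membrane serine protease matriptase, had 652.7, 696.8 and 525.0 in the DCC-2036 replicates, against 427.9, 404.3 and 400.5 in the control replicates. The control arrays were close together and all lay under the treated ones. The log2 change was 0.59 ± 0.16, a 1.51-fold rise (95% interval 0.21 to 0.98; limma adjusted p = 0.0356), and 19.8% of all genes rose as far or farther. It did not pass without DCC-2036 replicate 1 (0.56) or 2 (0.51), nor without control replicate 1 (0.62), 2 (0.58) or 3 (0.58).

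HGFAC, the plasma protease that activates HGF, had 141.0, 150.2 and 38.6 in the DCC-2036 replicates, against 98.5, 95.9 and 100.7 in the control replicates. DCC-2036 replicates 1 and 2 lay above every control array and replicate 3 far below them. The log2 change of -0.07 did not pass (95% interval -1.31 to 1.17; limma adjusted p = 0.935), and the interval holds a 2-fold change either way. Without DCC-2036 replicate 3 the change was 0.56, which did not pass either (limma adjusted p = 0.0539).

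In their representative records both Kunitz inhibitors, membrane-bound proteins that block matriptase and the HGF activator, were higher in every treated array. Of these, SPINT2 passed. SPINT2 had 11359, 13122 and 12137 in the DCC-2036 replicates, against 7064.5, 6892.8 and 6706.0 in the control replicates. The control arrays were within a narrow band, and the groups were far apart. This was a 1.77-fold rise (log2 change 0.82 ± 0.13, 95% interval 0.50 to 1.15; limma adjusted p = 0.00701) that kept its call in all 16 alternatives, between 0.77 and 0.87.

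SPINT1, whose representative record is NM_181642, had 562.3, 535.3 and 719.2 in the DCC-2036 replicates, against 438.5, 445.8 and 337.9 in the control replicates. The groups did not overlap, yet the log2 change of 0.57 ± 0.19 (95% interval 0.11 to 1.03) did not pass (limma adjusted p = 0.0701). It passed without the dimmest 25% of records (limma adjusted p = 0.0429), without records below the median (0.0178) or with trend and robust settings (0.0379). Its other record, NM_001032367, had 277.4, 332.9 and 310.9 with DCC-2036 and 289.1, 275.5 and 282.5 in control arrays, and the groups overlapped (log2 change 0.12, 95% interval -0.23 to 0.46). The difference between the records was not tested.

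**Figure D3:**
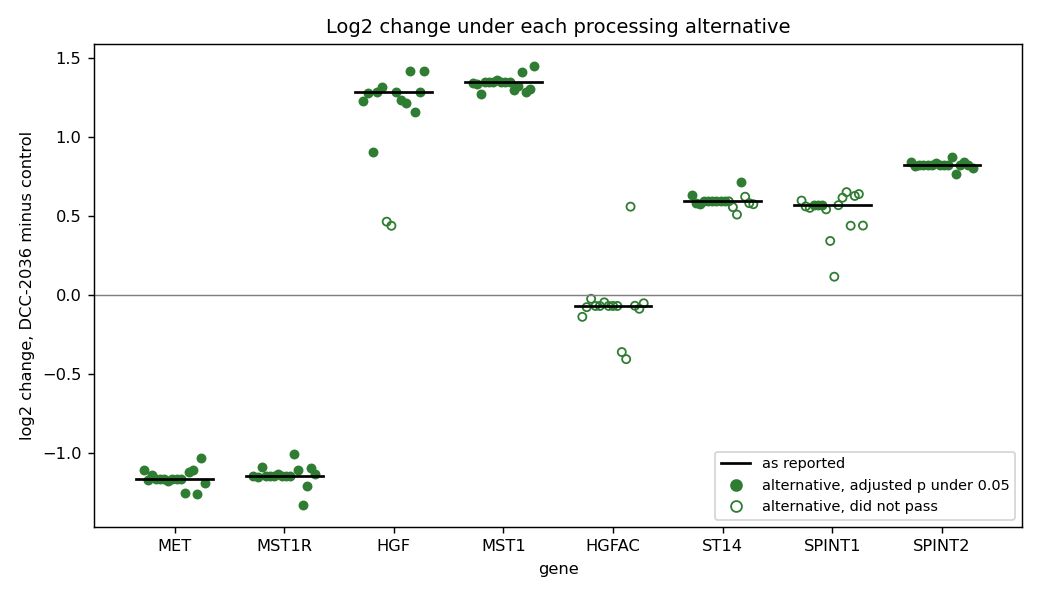
Log2 change, DCC-2036 minus control (vertical axis), of each of the 8 genes (horizontal axis) as reported (black line) and under each alternative (green, filled where adjusted p was under 0.05). MET, MST1R, MST1 and SPINT2 keep filled points throughout, ST14 and SPINT1 straddle the threshold, HGF drops to 0.47 and 0.44 with other records, and HGFAC has open points on both sides of 0.

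Other proteases that can activate HGF, are listed with the proteins around them. Of 14 genes described 1 rose, 1 fell and 12 did not pass, so 14.3% passed, below the 29.1% of all genes, and the median log2 change was 0.15. HPN, the membrane serine protease hepsin, which cuts pro-HGF, had 426.6, 393.7 and 365.8 in the DCC-2036 replicates, against 81.2, 105.8 and 68.7 in the control replicates. It rose 4.66-fold (2.22 ± 0.20; limma adjusted p = 0.00126). PLAU, the urokinase protease, fell by 3.86 on the log2 scale, with 882 ± 156 in DCC-2036 arrays and 12654 ± 884 in control arrays. The most intense members that did not pass were PLAT, tissue plasminogen activator (-0.26 ± 0.13), and PLAUR, the urokinase receptor (-0.51 ± 0.25). The other PLAUR records changed by -0.015 and -0.035, and without DCC-2036 replicate 1 the PLAUR change was -0.23. Without control replicate 1 the number lower was 2, the second being the kallikrein KLK5 (-1.62), named after its value was seen. Both KLK5 group means lay in the dimmest 25% of records.

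Most cell surface partners of the receptors did not pass. The limma test called 4 of 16 higher and 0 lower, 25% beside 29.1% of all genes, and 12 did not pass (4 higher and 0 lower at an unadjusted p under 0.05), with a median log2 change of 0.38 beside 0.02 over all genes, of which 13.1% rose and 16% fell. NRP1 and NRP2, the neuropilin co-receptors, had 16316 ± 249 and 1581 ± 287 in DCC-2036 arrays, against 8994 ± 1377 and 760.2 ± 48.6 in control arrays (log2 changes 0.87 and 1.04). Their other records changed by 1.07 and 0.45 for NRP1 and by 1.18 and 0.62 for NRP2, and in each gene the first passed and the second did not. PLXNB3, a plexin, had 559 ± 45.2 in DCC-2036 arrays and 316 ± 7.03 in control arrays (0.82 ± 0.14). SDC1, the heparan sulphate proteoglycan syndecan 1, rose 1.57-fold, with 3077 ± 239 in DCC-2036 arrays and 1966 ± 252 in control arrays, and lost its call without DCC-2036 replicate 1 (0.59), 2 (0.70) or 3 (0.67) or control replicate 1 (0.57) or 3 (0.63). Without DCC-2036 replicate 1 the number lower was 1, CDH1 (-1.28), which is named after its value was seen. ITGB1 (-0.31 ± 0.18) and ITGB4 (0.53 ± 0.28), integrin beta chains, were the most intense that did not pass, though both other ITGB4 records did when adjusted over all records (0.95 and 0.60).

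Of 18 adaptors and effectors that carry the signal inside the cell, 2 rose, 2 fell and 14 did not pass, so 22.2% passed, near the 29.1% of all genes, with a median of 0.08. PTPN11, the phosphatase SHP2 that links GAB1 to RAS signalling, had 1264.7, 1103.1 and 1031.5 in the DCC-2036 replicates, against 2737.9, 2769.8 and 2775.5 in the control replicates. It fell 2.44-fold (-1.29 ± 0.14; limma adjusted p = 0.00218), and the control arrays hardly differed from each other. PIK3CA, the catalytic p110-alpha subunit of PI3-kinase, fell 1.99-fold, with 319 ± 44.3 in DCC-2036 arrays and 636 ± 90.1 in control arrays. STAT3, a transcription factor that MET can activate, rose by a log2 change of 0.63 ± 0.14 (second record 0.46, not passing), and lost its call without DCC-2036 replicate 2 (0.57) or control replicate 1 (0.67), 2 (0.65) or 3 (0.58). INPPL1, the lipid phosphatase SHIP2, rose by 0.81 ± 0.23, and lost its call without DCC-2036 replicate 2 (0.78) or 3 (0.70) or control replicate 1 (0.66) or 2 (0.82). Leaving out DCC-2036 replicate 2 or control replicate 1 or 2 left 0 higher, and leaving out replicate 3 of either group left 1. RAC1, a small GTPase (-0.12 ± 0.15), and SHC1, an adaptor (-0.29 ± 0.17), did not pass.

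Of 17 genes listed as negative regulators of MET, 3 rose, 3 fell and 11 did not pass. Thus 35.3% passed, near the 29.1% of all genes, with a median log2 change of -0.21. These figures include TIMP1, among the 3 that rose, which is not itself a negative regulator. SPRY4, an inhibitor of RAS-ERK signalling that ERK activity induces, had 3219, 1768 and 1820.1 in the DCC-2036 replicates, against 9728, 7816 and 10084 in the control replicates. The fall was 4.20-fold (-2.07 ± 0.27; limma adjusted p = 0.00362), and DCC-2036 replicate 1 was the highest treated array. ERRFI1, the feedback inhibitor MIG6, fell 2.32-fold, with 4946 ± 682 in DCC-2036 arrays and 11484 ± 1533 in control arrays. HGS, which sorts ubiquitinated receptors at endosomes, rose 2.12-fold, and PTPRJ, a receptor phosphatase that acts on MET, 1.86-fold, with 3070.2 ± 192 in DCC-2036 arrays and 1660.0 ± 222 in control arrays. ADAM10, a protease that sheds the MET ectodomain, had a log2 change of -0.50 ± 0.15 (limma adjusted p = 0.0491). It did not pass without DCC-2036 replicate 1 (-0.56), 2 (-0.40) or 3 (-0.54) or control replicate 1 (-0.48), 2 (-0.49) or 3 (-0.53). TIMP1, counted in the list though it inhibits such proteases, rose by 0.72 ± 0.15, and lost its call without control replicate 1 (0.62). The rise of TIMP1 is therefore not a rise of a negative regulator. PTPN1, a tyrosine phosphatase (0.26 ± 0.16), and SH3KBP1, an adaptor of receptor endocytosis (-0.03 ± 0.15), did not pass.

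Of 10 transcription factors known to act on the MET promoter, 1 rose, 4 fell and 5 did not pass, with a median of -0.38. Thus 50% passed beside 29.1% of all genes, of which 13.1% rose and 16% fell. ETS1 had 2125, 2575 and 2442 in the DCC-2036 replicates, against 8331, 7850 and 6580 in the control replicates, a 3.18-fold fall (-1.67 ± 0.16; limma adjusted p = 0.00159). The related factor ETS2 fell 2.35-fold, with 450.4 ± 57.8 in DCC-2036 arrays and 1057 ± 71.2 in control arrays. FOSL1, an AP-1 subunit, had 4802 ± 1413 in DCC-2036 arrays and 19145 ± 3844 in control arrays (-2.02 ± 0.29). MITF, best known from melanocytes, fell 2.001-fold, with 105.5 ± 9.45 in DCC-2036 arrays and 212.7 ± 26.1 in control arrays. PAX3, a developmental factor, rose by 0.89 ± 0.22. It has 5 records, of which the other 4 changed by 0.85, 0.63, 0.72 and 0.32 and did not pass, and the count higher was 0 without DCC-2036 replicate 1 (0.91), DCC-2036 replicate 2 (0.77), control replicate 1 (0.95) or control replicate 3 (0.69). YBX1 (0.38 ± 0.14) and HIF1A (0.45 ± 0.18) did not pass. Both passed without records below the median (limma adjusted p = 0.0264 and 0.0319) and with trend and robust settings (0.0166 and 0.0234). YBX1 also passed without the dimmest 25% of records (limma adjusted p = 0.0478), and HIF1A with the mean of its records (0.0378).

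**Figure D4:**
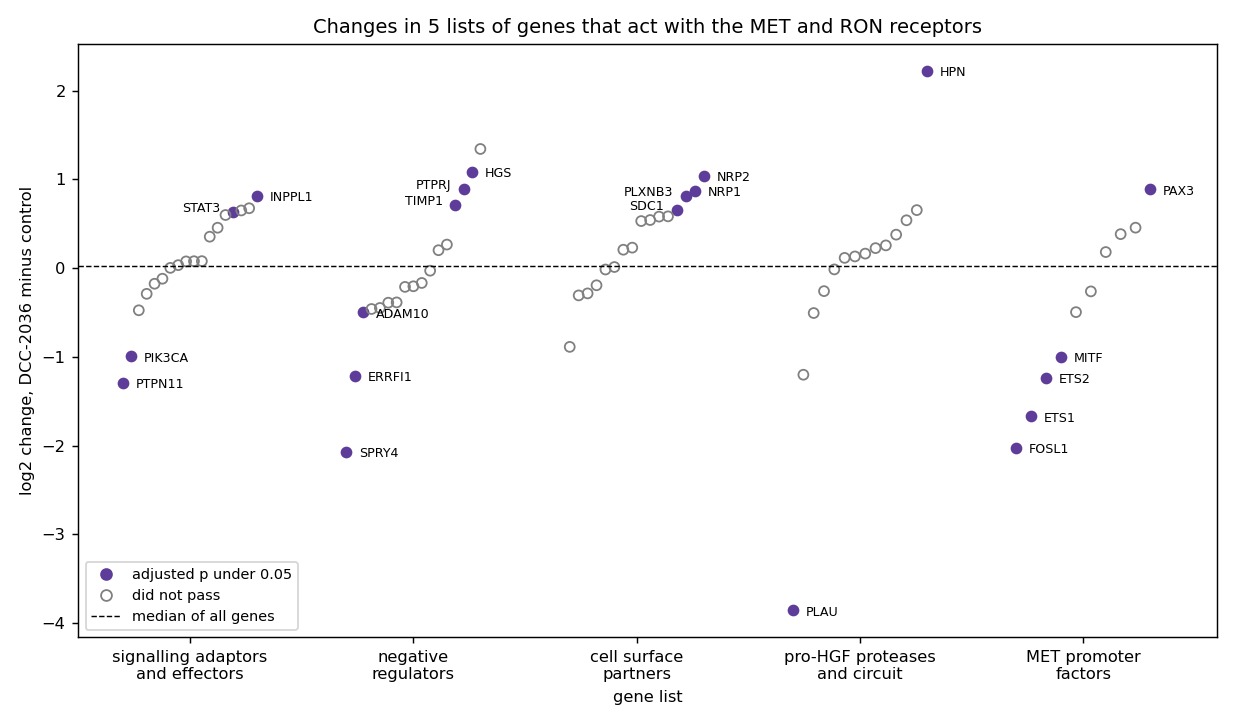
Log2 change, DCC-2036 minus control (vertical axis), of every measured gene in the 5 lists, ordered by size within a list, filled and named where adjusted p was under 0.05, with the median of all genes (0.02) as a dashed line. PLAU (-3.86) lies lowest and HPN (2.22) highest, and among surface partners the filled points lie above the line.

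Markers of cells that make the ligands were set beside the rises of HGF and MST1, and their counts stand beside the 29.1% of all genes that passed. Of 4 fibroblast markers 1 passed, LUM, which was lower, and their summed intensity ran from 364.1 to 909.4 in DCC-2036 arrays and from 323.4 to 530.2 in control arrays. The sum of 909.4 holds 492.3 of DCN in DCC-2036 replicate 3, against 41.67 to 106.2 in the other arrays. Of 4 hepatocyte markers 2 rose, APOA1 and SERPINA1, with a summed intensity from 3066 to 3324 in DCC-2036 arrays and from 2099 to 2824 in control arrays, while ALB, albumin, had 20.6 ± 4.28 in DCC-2036 arrays and 39.3 ± 41.6 in control arrays. Control replicate 2 was outlying, with 87.33 for ALB and 468.2 for APOB, against at most 15.82 and 79.67 in the other control arrays. Of 3 leukocyte markers 0 passed in the limma test, also at an unadjusted p under 0.05, and their sum ran from 300.8 to 403.0 in DCC-2036 arrays and from 223.5 to 341.6 in control arrays. LUM lost its call without replicate 2 or 3 of DCC-2036 or 1 or 3 of control, APOA1 without DCC-2036 replicate 1 or 2 or control replicate 1 or 3, and SERPINA1 without any one array. The leukocyte marker PTPRC passed without control replicate 3 (1.26), though both its group means lay in the dimmest 25% of records. The part of such cells in the rises of HGF and MST1 was not tested.

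The genes whose pattern over the 6 arrays was most like that of a member were sought among the 8592 genes above the median of mean log2 values, by Pearson correlation. All 6 points share arrays and the difference between groups, so these are descriptions. Most like MET were CAD (0.995), RNF25 (0.995) and F2R (0.995), and most like MST1R were RBM4 (0.999), CHST15 (0.999) and SELENOS (0.995). For HGF they were ZMAT3 (0.999), ITM2C (0.998) and NUBP2 (0.997), and for MST1 they were ASIC1 (0.999), VWA1 (0.999) and NR2F6 (0.999). ST14 was most like NDUFA12 (0.996), POPDC2 (0.995) and ZNF579 (0.994), and SPINT2 most like VPS4A (0.998), ATG9A (0.997) and LRFN4 (0.997).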

How the data were processed

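Total RNA of each culture was made into Cy3-labelled double-stranded cDNA and hybridized to a one-colour NimbleGen array, per the labels' protocols. The deposited table holds 1 linear intensity per transcript record and array (8.03 to 65365), made by the authors with RMA, per the submitters' processing notes. The sources used here do not give the background correction, the probes per record or the build. The intensities were used as deposited.

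Of 45033 records, 18188 were named by the platform annotation and 678 by RefSeq accession, giving 17185 genes, and 26167 records had no name here. Values were put on the log2(value + 1) scale, and DCC-2036 was compared with control in R 4.3.3 by limma 3.58.1 (two-sided, lmFit then eBayes, without covariates). P-values were adjusted by the Benjamini-Hochberg method over the 17185 genes, or over the 45033 records for other records of a gene, with a threshold of 0.05. Folds are back-transformed log2 changes. With 3 arrays in each group an exact permutation p cannot be smaller than 0.1, so none was used. The fit was run on simulated data with known changes and independent noise, which checks the code and not the calls reported here. Genes named from a list are every member past the threshold and the 2 most intense that did not pass. PLXNB2 (surface partners) and TMPRSS13 (proteases) matched no record. A further gene of the protease list is not reported here. Members and lists were chosen with earlier results of these data known. Alternatives are given in the closing section. Tables and figures were made in Python 3.11.15 (pandas 2.3.3, matplotlib 3.10.9).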

Additional observations from a re-analysis of the deposited data

How the results depend on the processing

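Alternatives were a pseudocount of 16, a second quantile normalization, centring on array medians, tests without the dimmest 25% of records or without those below the median, trend and robust settings, array weights, the mean or the second brightest of a gene's records, a replicate block and each array left out in turn. MET, MST1R, MST1 and SPINT2 passed in all of them. Each of these genes has 1 record, so the mean and second brightest settings refit its same values. The tests without dim records, the trend and robust settings and the block changed only its error and adjusted p, not its log2 change. HGF could not be tested without dim records, nor HGFAC without records below the median. HGF did not pass with the mean of records (0.47) or the second brightest record (0.44). ST14 did not pass with the replicate block (0.59; limma adjusted p = 0.0836) and ranged from 0.51 to 0.71 leaving out an array. The block also ended the calls of ADAM10, SDC1, STAT3 and TIMP1 and of the markers VIM, LUM, APOA1 and SERPINA1, and no other call of a member, of a gene named from a pathway list or of the markers CAV1 and AXL. ADAM10 also did not pass with quantile normalization (limma adjusted p = 0.0654) or median centring (0.0506). LUM did not pass with trend and robust settings (limma adjusted p = 0.0607), nor SERPINA1 with the mean of its records (0.0932). SPINT1 (0.57) passed without the dimmest 25% of records, without records below the median and with trend and robust settings. HGFAC ranged from -0.41 to 0.56 leaving out an array, the highest without DCC-2036 replicate 3, the HGF record NM_001010934 from -0.52 to 0.035, the highest without control replicate 2, and SH3KBP1 turned to 0.0058 with the mean of records, 0.041 with the second brightest record and from -0.13 to 0.057 leaving out an array, the highest without control replicate 1. The cause of these shifts was not tested.

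Of the 18 adaptors and effectors, 4 were higher with quantile normalization, with 16 added or without the dimmest 25% of records, 5 without records below the median or with trend and robust settings, 1 with the second brightest record or the replicate block, and 0 to 2 leaving out an array. Negative regulators had 5 lower without records below the median. Surface partners had 0 to 1 lower leaving out an array. In the list of other proteases 0 were higher without records below the median, where HPN was no longer tested, and 1 to 2 were lower leaving out an array. MET promoter factors had 2 higher without the dimmest 25% of records or with the mean of records, 3 without records below the median or with trend and robust settings, 0 with the second brightest record and 0 to 1 leaving out an array. Over all genes, 1376 were higher and 1793 lower with the replicate block, and 1421 to 1886 higher and 1721 to 2307 lower leaving out an array. Deviations of same-numbered arrays from their group means correlated at -0.08, 0.04 and -0.09 across genes. The highest correlation was 0.15, between DCC-2036 replicate 1 and control replicate 3. Only DCC-2036 replicate 2 correlated best with its own number. So few correlations cannot exclude that same-numbered arrays were paired.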
